A study of Mus musculus with 16 samples.

Results

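The Taar7 and Taar8 genes of the mouse were followed through olfactory cells that had been sorted by an activity reporter, with and without an inhaled ketone. Members were taken by name: every probe set of the Clariom S mouse array whose annotated symbol is Taar7 or Taar8 followed by a letter. This gave 8 genes with 1 probe set each (Taar7a, Taar7b, Taar7d, Taar7e, Taar7f, Taar8a, Taar8b and Taar8c) out of 22206 probe sets tested, and the Entrez identifiers of all 8 matched the reference gene table. All mice carried S100a5-tauGFP, a fluorescent reporter driven by S100a5, a calcium-binding protein gene that follows the activity of olfactory sensory neurons. A total of 24 mice of both sexes, aged 7 to 12 weeks, were housed singly in chambers for 40 h, at an air flow of 3.1 L per min. From 26 h on the air carried a pulse of 10 s every 20 min, which held 2-hexanone in the odor group and filtered air alone in the vehicle group. Olfactory mucosa of 3 mice was pooled and dissociated, and a cell sorter split each pool by GFP fluorescence (GFP+ and GFP-). With 4 pools in each treatment this came to 16 arrays, in 4 groups of 4. The values are deposited log2 signals, and every level and difference below is on that scale.

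Trace amine-associated receptors are G protein-coupled receptors that detect amines. Apart from Taar1, they are expressed in olfactory sensory neurons, where they take the place of an odorant receptor: a neuron that chooses a Taar gene shows no odorant receptor, and signals through the same cascade of Gnal, Adcy3 and the cyclic nucleotide-gated channel. Taar7 and Taar8 are groups of recent duplicates in rodents. Taar7f responds to tertiary amines such as N-methylpiperidine. The 2-hexanone used here is a ketone and no amine.

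The genes lie next to each other on chromosome 10, between Taar6 and Taar9, in the order Taar7a, Taar7b, the pseudogene Taar7c-ps, Taar7d, Taar7e, Taar7f, Taar8a, Taar8b and Taar8c. RefSeq gene models of the Taar7 genes are 1077 bases long in each case and begin at the start codon, so they hold coding sequence only. RefSeq windows around the model start matched 6 of the 8 members. The first 50 coding bases of the 5 Taar7 genes are shown because near-identical paralogs may share probes; capitals mark bases that differ from Taar7d.
Taar7a: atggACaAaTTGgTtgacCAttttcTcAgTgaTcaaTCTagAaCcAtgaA
Taar7b: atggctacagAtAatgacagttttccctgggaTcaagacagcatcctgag
Taar7d: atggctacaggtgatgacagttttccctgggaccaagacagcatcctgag
Taar7e: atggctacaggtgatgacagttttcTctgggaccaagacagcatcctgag
Taar7f: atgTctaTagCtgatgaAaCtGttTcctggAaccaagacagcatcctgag
In build GRCm38.p6 these stretches are chr10:23993432-23993481 (minus strand) for Taar7a and, on the plus strand, chr10:23999939-23999988 for Taar7b, chr10:24027222-24027271 for Taar7d, chr10:24037614-24037663 for Taar7e and chr10:24049510-24049559 for Taar7f. Taar7d and Taar7e differ at 1 of the 50 bases (C26T, counted from 1 at the start codon). Taar7b differs from Taar7d at 3 bases, Taar7f at 8 and Taar7a at 20. Over the 250 bases before the start codon, aligned end to end, Taar7d and Taar7e were 84.4% identical and Taar7d and Taar7f 78.8%. Taar7b was 58.4% identical to Taar7d there and 56.3% to Taar7e, close to the 55.2% of Taar7a with Taar7d. The same alignment gave 51.1% to 54.4% for Taar8b with the 5 Taar7 genes. The array's probe letters were not used here, so how far each probe set also reads its paralogs was not tested.

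The sort was checked on S100a5, which was higher in GFP+ than in GFP- cells of every pool, by 1.21 to 1.75. All 7 markers of mature olfactory neurons, Omp among them, were above background on all 16 arrays, with summed levels of 21.23 to 21.58 in GFP+ and 21.23 to 21.47 in GFP- arrays. Of these 7, 2 were higher in GFP+ cells in vehicle (Adcy3 and Ano2), 1 in odor (Ano2) and 0 lower in either. Omp read 19.19 to 19.50, near the highest of all values (19.81), so such sums may not show differences in neuron content. All 11 immune markers measured were lower in GFP+ cells of both treatments (median difference -6.86 in vehicle and -6.97 in odor), with summed levels of 8.44 to 9.09 in GFP+ and 15.73 to 18.58 in GFP- arrays. In GFP+ cells none of them was above background on all arrays, and 9 of 11 were so on no array in vehicle. Of 7 sustentacular markers 5 were lower in each treatment (summed level 12.13 to 14.62 in GFP+ and 14.54 to 15.88 in GFP- arrays), and of 6 immature neuron markers 5 were lower in vehicle and 4 in odor. In sorted cell samples, fewer cells of a type and less RNA per cell cannot be told apart. The part of these other cells in the differences below was not tested.

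The members split into those measured and those not. An array's background floor was the highest of its antigenomic background bins (6.16 to 7.33). Taar7b, Taar7d, Taar7e and Taar7f were above the floor on all 16 arrays, and Taar7a on 8. Taar8a and Taar8c passed it on 1 array each, and Taar8b on none. Against a stricter level, the 95th percentile of the negative control rows of each array, Taar7b was above on 12 arrays, Taar7d on 11, Taar7e on 5, Taar7f on 3 and the other members on none. Levels are not compared between genes, since each probe set has its own response.

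**Figure D1:**
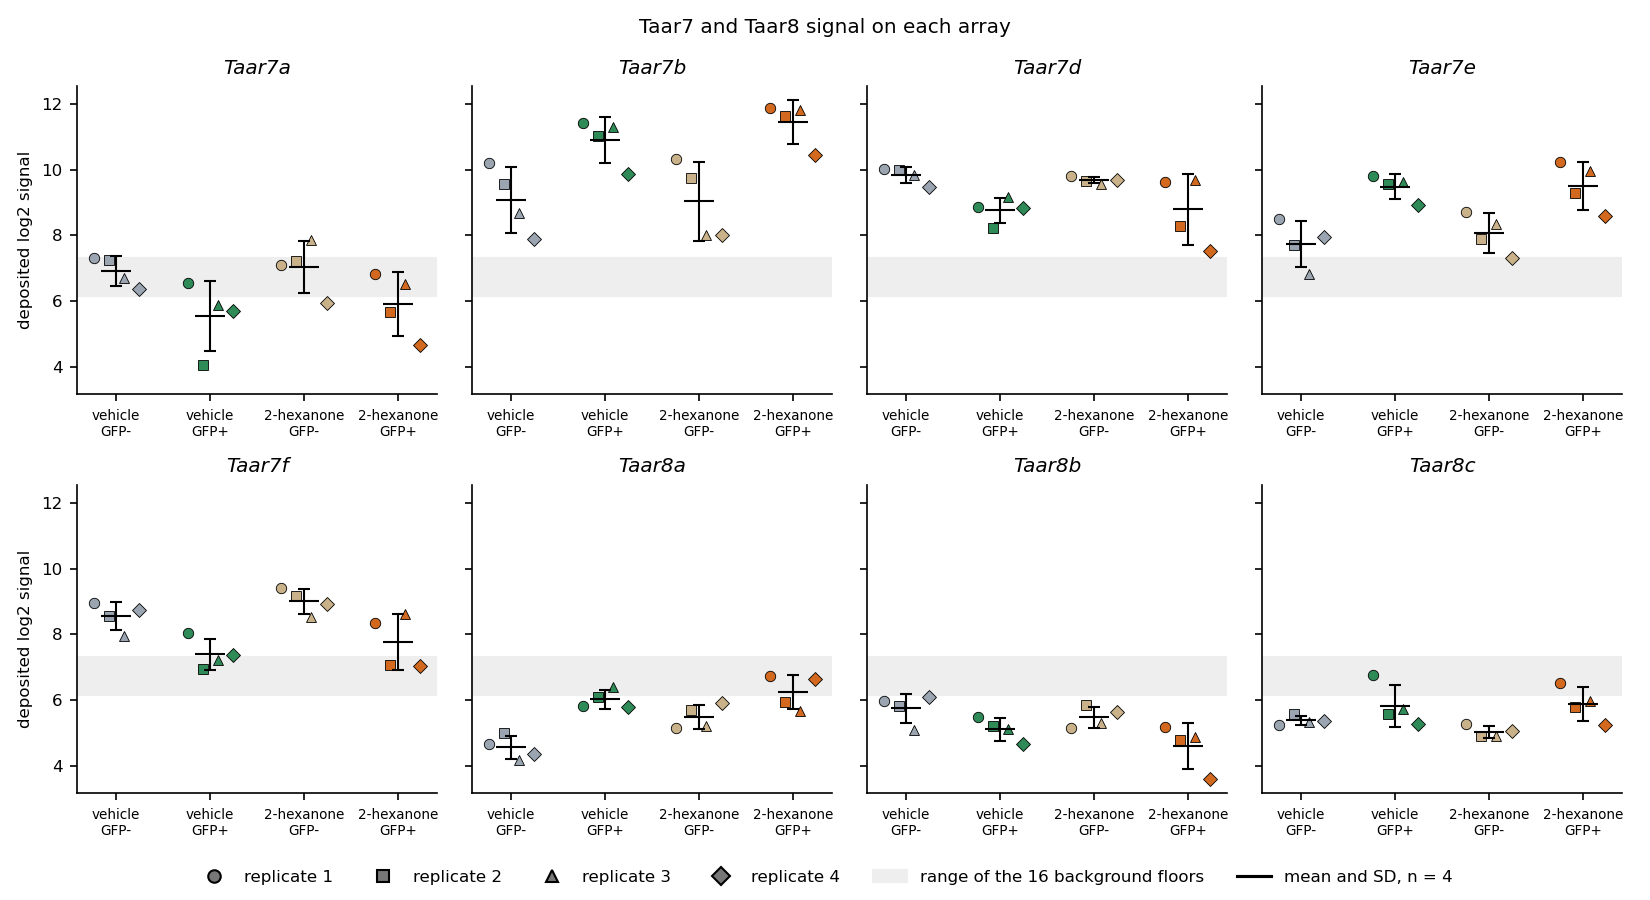
Deposited log2 signal of the 8 members on each of 16 arrays, with points for pools (marker shape is the replicate number), lines for mean and SD of 4 arrays, and a grey band for the range of the background floors (6.16 to 7.33). Taar7b and Taar7e are higher in GFP+ cells, Taar7f is higher in GFP- cells, and the Taar8 points lie in or under the band.

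The first comparison asked which members differed between GFP+ and GFP- cells when no odorant was added. In vehicle, Taar7b, Taar7e and Taar8a were higher and Taar7f lower in GFP+ cells, and the other 4 members did not pass by limma with Benjamini-Hochberg adjustment over all probe sets. Of all 22206 probe sets 15.7% passed in that comparison (5.83% higher and 9.86% lower), and of 1080 odorant receptors 58.1% did (36.0% higher and 22.1% lower). The members' 4 of 8 include Taar8a, which was under the floor on every array compared, so no reading is drawn from that share. The members' median difference was -0.08, beside 0.14 for all probe sets. With odor, the same question gave Taar7b and Taar7e as higher and Taar7f as lower, while 5 members did not pass. The share called there was 14.9% of all probe sets (5.29% higher and 9.56% lower) and 58.0% of odorant receptors (36.2% higher and 21.8% lower), and the members' median was -0.06 beside 0.14. The 2 comparisons contrast different arrays, but the fit took 1 estimate of the spread from all 16 arrays, so their calls are not independent. Of all probe sets 3.03% passed as higher and 8.37% as lower in both, like Taar7b and Taar7e on one side and Taar7f on the other. Centring each array on its median moved the median of all probe sets to 0.50 in vehicle and 0.49 in odor, and the members' median to 0.28 in vehicle.

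Taar7b stood at 9.88, 11.04, 11.31 and 11.41 in GFP+ and at 7.90, 8.67, 9.55 and 10.21 in GFP- cells of the 4 vehicle pools. The groups overlapped, since the highest GFP- array lay above the lowest GFP+ array, but within each pool the GFP+ sample was the higher, by 1.19 to 2.64. Taar7b was 3.54-fold higher in GFP+ cells in vehicle (log2 difference 1.82 ± 0.55 SE, n = 4 pools, limma adjusted p = 0.0309). In odor its GFP+ arrays read 10.46, 11.63, 11.82 and 11.88 and its GFP- arrays 8.02, 8.02, 9.76 and 10.34. The odor groups did not overlap, as for 9.4% of all probe sets (20.0% in either direction), and Taar7b was 5.33-fold higher in GFP+ cells (2.41 ± 0.55, adjusted p = 0.00467). GFP- arrays of Taar7b spread more (SD 1.01 in vehicle and 1.20 in odor) than GFP+ arrays (SD 0.70 and 0.67). The vehicle call was lost without vehicle replicate 2, 3 or 4 (adjusted p = 0.0780, 0.161 and 0.0550) and with a trended robust prior (0.0550), and the odor call without odor replicate 3 (0.0573).

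Taar7e stood at 8.93, 9.56, 9.64 and 9.80 in GFP+ and at 6.82, 7.71, 7.94 and 8.50 in GFP- cells in vehicle. Every GFP+ array lay above every GFP- array, as for 9.01% of all probe sets (19.0% in either direction). Taar7e was 3.34-fold higher in GFP+ cells in vehicle (1.74 ± 0.39 SE, adjusted p = 0.00349). In odor the GFP+ arrays read 8.58, 9.30, 9.96 and 10.22 and the GFP- arrays 7.30, 7.88, 8.35 and 8.72, a 2.73-fold difference (1.45 ± 0.39, adjusted p = 0.0144) with a small overlap. The pool differences were close to each other in odor (1.28 to 1.61) and spread wider in vehicle (0.99 to 2.82). The odor call was lost without odor replicate 2 or 3 (adjusted p = 0.0598 and 0.0613). The vehicle call was lost with values raised to the negative control percentile (0.52, adjusted p = 0.223).

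Taar7f ran the other way. In vehicle it read 6.96, 7.21, 7.38 and 8.05 in GFP+ and 7.96, 8.56, 8.75 and 8.97 in GFP- cells, so that only the ends of the groups overlapped. Taar7f was 2.23-fold lower in GFP+ cells in vehicle (-1.16 ± 0.35 SE, adjusted p = 0.0306) and 2.35-fold lower in odor (-1.23 ± 0.35, adjusted p = 0.0224). The odor arrays read 7.03, 7.08, 8.36 and 8.62 in GFP+ and 8.53, 8.92, 9.18 and 9.41 in GFP- cells. Within pools Taar7f was lower in GFP+ cells of 7 of 8, and in odor replicate 3 the difference was 0.10. The vehicle call was lost without vehicle replicate 2 or 4 (adjusted p = 0.147 and 0.133) and with centred arrays (-0.80, adjusted p = 0.0610), and the odor call without odor replicate 2 or 4 (0.167 and 0.132). With values raised to the negative control percentile, neither call held (0.03 in vehicle, adjusted p = 0.920, and -0.14 in odor, adjusted p = 0.784).

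Taar7d missed the threshold in vehicle (-1.06 ± 0.36 SE, adjusted p = 0.0571), although its groups did not overlap (as for 10.0% of all probe sets in the lower direction): 8.24, 8.82, 8.86 and 9.16 in GFP+ and 9.48, 9.84, 10.00 and 10.01 in GFP- cells. It passed under a random pool block (adjusted p = 0.0333) and not under a fixed pool block (0.0529). Its call differed from the main one under 12 of 23 alternatives in vehicle, with adjusted p from 0.00954 to 0.258 over all of them. In odor the GFP- arrays stayed close together (9.57, 9.65, 9.68 and 9.81, SD 0.10), while the GFP+ arrays spread from 7.52 to 9.70 (SD 1.07). Of those GFP+ arrays 2, at 9.64 and 9.70, lay within the GFP- range. The difference of -0.89 ± 0.36 did not pass (adjusted p = 0.120, and adjusted p = 0.0774 under a random pool block).

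Taar7a, the Taar7 gene on the opposite strand, lay near background. Vehicle GFP- arrays read 6.37, 6.70, 7.25 and 7.30, all above the floor, and GFP+ arrays 4.05, 5.69, 5.87 and 6.56, with 1 of 4 above it. The difference of -1.37 ± 0.52 did not pass (adjusted p = 0.0855), and it passed under a random pool block (0.0457) and as a fixed block (0.0297). With arrays under the floor raised to it, the difference was -0.35 (adjusted p = 0.637). In odor no GFP+ array (4.67 to 6.83) and 3 of 4 GFP- arrays (5.95 to 7.87) were above the floor, and the difference of -1.12 ± 0.52 did not pass (adjusted p = 0.174). Even so Taar7a was lower in GFP+ cells of all 8 pools, with differences of -3.21 to -0.28, a pattern that 10.9% of all probe sets showed in the lower and 10.9% in the higher direction.

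**Figure D2:**
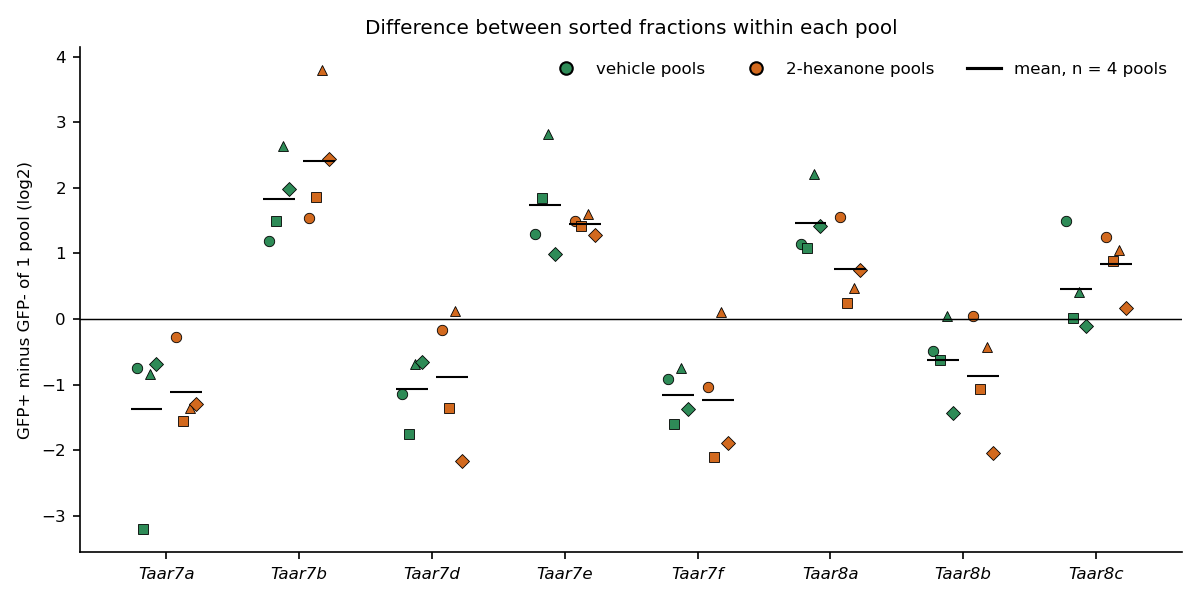
GFP+ minus GFP- log2 signal of each of 8 pools for the 8 members, coloured by treatment, with marker shape for the replicate number and a line for the mean of 4 pools. Taar7b, Taar7e and Taar8a are above 0 in all 8 pools, Taar7a is below 0 in all 8, and Taar7d and Taar7f are below 0 in 7.

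Neighbouring Taar7 genes thus differed in direction along the cluster, with Taar7b and Taar7e on one side of 0 and Taar7a, Taar7d and Taar7f on the other, of which Taar7f passed. The pair closest over the first 50 coding bases was on opposite sides too. Whole coding sequences and probe sequences were not compared. Taar7d and Taar7e share 49 of their first 50 coding bases, yet the GFP+ to GFP- difference of Taar7e exceeded that of Taar7d in 8 of 8 pools, by 2.57 ± 0.89 (SD, n = 8 pools, lowest 1.48 and highest 3.61). An exact sign-flip permutation test over pools gave a two-sided p = 0.00781, the smallest that 8 pools allow. Any difference of the same sign in all 8 pools gives this p. Of single probe sets, 10.9% were higher and 10.9% lower in all 8 pools. The share among other gene pairs was not computed, so the p does not show that such a split is rare. The pair was taken for its sequence, after the array values were known.

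The likeness of array profiles did not follow the order of identity over the first 50 coding bases. For each pair of members, the root mean square difference of their 16 values was taken after each was centred on its own mean, so that a smaller value is a closer profile. Among the 10 pairs of Taar7 genes the closest profiles were those of Taar7d and Taar7f (0.450), Taar7a and Taar7d (0.556), Taar7a and Taar7f (0.613) and Taar7b and Taar7e (0.708). Every pair across the 2 directions was farther apart, from 1.39 for Taar7d and Taar7e to 1.88 for Taar7a and Taar7b. The sort difference is part of each profile, so this distance largely restates the grouping by direction and is no separate result. Taar7a shares 60.0% of its first 50 coding bases with Taar7d and 50.0% with Taar7f, while Taar7b shares 94.0% with Taar7d at a profile difference of 1.72. These pairs share arrays and genes and are given as a description.

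**Figure D3:**
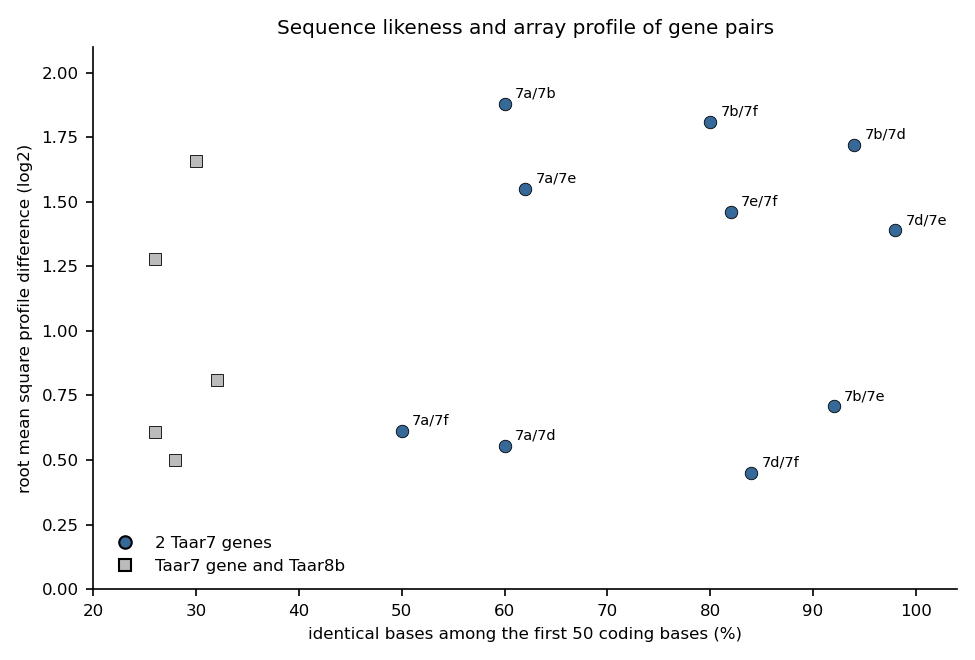
Root mean square difference of centred log2 profiles over 16 arrays against the percentage of identical bases among the first 50 coding bases, for the 15 pairs of the 6 genes with a RefSeq window (labels name the Taar7 pair; squares are pairs with Taar8b). Pairs at 80% identity or above range from 0.450 (7d/7f) and 0.708 (7b/7e) to 1.72 (7b/7d) and 1.81 (7b/7f), with 7d/7e at 1.39.

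The 3 Taar8 genes gave hardly any signal over background, so the differences below carry no fold. Taar8a passed in vehicle (1.46 ± 0.26 SE, adjusted p = 0.000515): its GFP+ arrays read 5.78, 5.81, 6.08 and 6.40 and its GFP- arrays 4.19, 4.36, 4.67 and 5.0. The groups did not overlap, but all 8 values lay under their floors. In odor Taar8a read 5.68, 5.94, 6.65 and 6.72 in GFP+ cells, where 1 array was above its floor, and 5.16, 5.20, 5.70 and 5.90 in GFP- cells. That difference of 0.76 ± 0.26 did not pass (adjusted p = 0.0627), and passed under a random pool block (0.0357) but not a fixed one (0.0574). Taar8b differed by -0.62 ± 0.31 in vehicle (adjusted p = 0.203) and by -0.87 ± 0.31 in odor (adjusted p = 0.0696, 0.0449 under a random and 0.0885 under a fixed pool block), with values of 3.59 to 6.09 on all arrays. Taar8c differed by 0.46 ± 0.28 in vehicle (adjusted p = 0.321) and by 0.84 ± 0.28 in odor (adjusted p = 0.0546, 0.0312 under a random and 0.0533 under a fixed pool block), with values of 4.90 to 6.75. Under a random pool block, 3 members were higher and 3 lower in vehicle, where 8.39% and 10.9% of all probe sets were. In odor 4 members were higher and 2 lower under it, beside 7.81% and 10.6% of all probe sets. A fixed pool block gave 3 higher and 2 lower members in vehicle (7.16% and 10.4% of all probe sets) and 2 higher and 1 lower in odor (6.83% and 10.0%). The vehicle counts of both blocks include Taar8a, and the random block's odor counts include all 3 Taar8 genes. No reading is drawn from those counts.

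The main question of the study was which transcripts change with 2-hexanone in GFP+ cells. None of the 8 members passed there (adjusted p of 1 for each by limma), nor did any have an unadjusted p below 0.05, which 3.91% of all probe sets had; 0.00901% of all probe sets passed after adjustment. Taar7b had the largest difference, 0.54 ± 0.55 SE (95% interval -0.63 to 1.71). For Taar7a it was 0.38 (interval -0.70 to 1.47) and for Taar7f 0.37 (-0.37 to 1.11). Taar7d and Taar7e lay near 0, with intervals of -0.75 to 0.78 and -0.78 to 0.84. The Taar8 genes ranged from -0.51 for Taar8b to 0.23 for Taar8a. No member had groups that did not overlap, as 2.01% of all probe sets had. The members' median was 0.14 beside 0.00 for all probe sets. These intervals do not show that the levels were equal: changes of more than 1 log2 unit in either direction lie inside some of them.

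In GFP- cells no member passed with 2-hexanone, nor did any probe set (0.0% passed). Unadjusted, 1 of 8 members and 2.46% of all probe sets had p below 0.05. That member was Taar8a, at 4.19, 4.36, 4.67 and 5.0 in vehicle and 5.16, 5.20, 5.70 and 5.90 in odor (0.93 ± 0.26 SE, unadjusted p = 0.00237 and adjusted p = 1 by limma). The groups did not overlap, as for 0.941% of all probe sets in that direction, 0.833% in the other and 1.77% in both, and every value was under its floor. The other 7 ranged from -0.34 for Taar8c to 0.45 for Taar7f, and the members' median was 0.04 beside 0.00. Whether the sort difference itself shifted with odor was tested as an interaction, and none of the 8 members passed or had an unadjusted p below 0.05, against 0.00901% and 2.93% of all probe sets. It was largest for Taar8a (-0.70, interval -1.49 to 0.08) and Taar7b (0.59, interval -1.06 to 2.24).

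**Figure D4:**
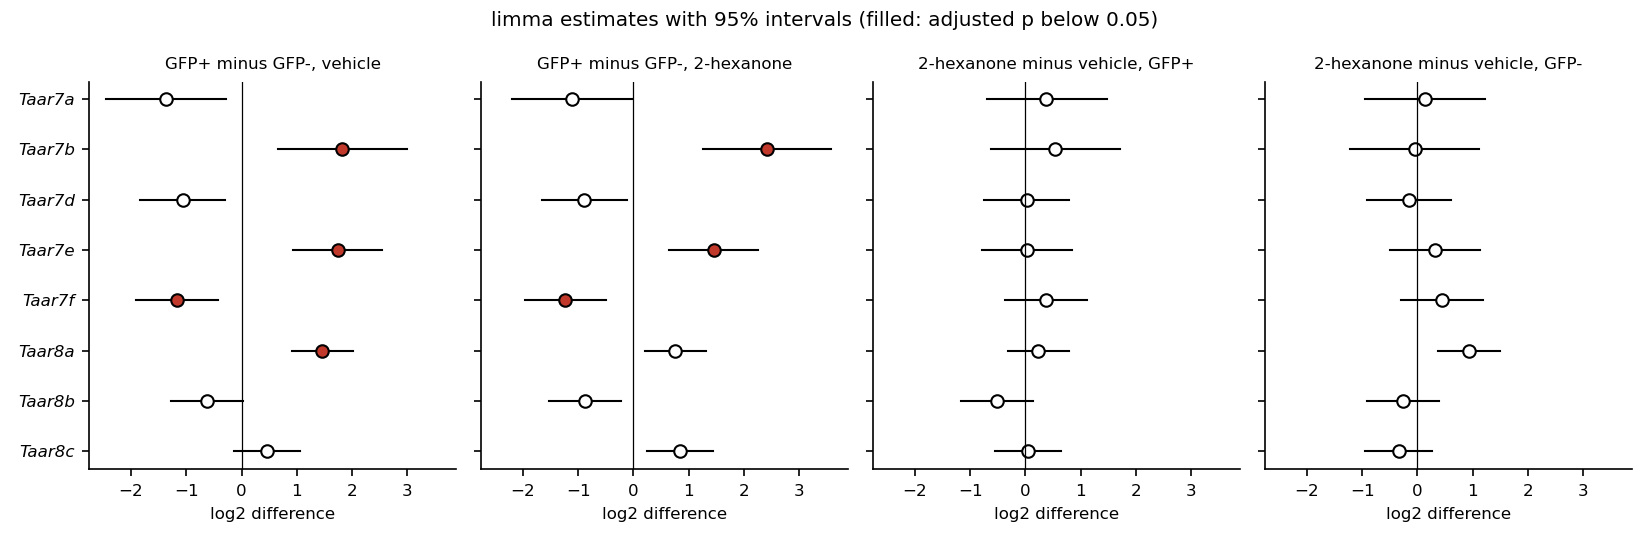
Log2 differences of the 8 members with 95% intervals by limma, for GFP+ minus GFP- cells in each treatment (left) and odor minus vehicle in each fraction (right), with filled points for adjusted p below 0.05. Filled points appear only in the sort panels: Taar7b and Taar7e above 0 and Taar7f below 0 in both, and Taar8a above 0 in vehicle.

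The rest of the receptor family went both ways as well. Of the 7 other Taar genes 3 passed as higher and 1 as lower in the vehicle sort comparison, and 2 and 1 in odor, with medians of 1.30 and 0.71. Of all probe sets 5.83% were higher and 9.86% lower in vehicle, and 5.29% and 9.56% in odor. Taar5, among the 3 higher in vehicle, was above the floor on 0 of 16 arrays, and the odor median is its value. Taar4 was higher by 2.99 ± 0.33 in vehicle (limma adjusted p = 1.91e-06) and by 3.23 ± 0.33 in odor (limma adjusted p = 7.01e-07). Taar2 was 5.37-fold lower in GFP+ cells in vehicle (-2.43 ± 0.32, limma adjusted p = 1.72e-05). Taar9, the neighbour of Taar8c, differed by 3.41 ± 0.50 in vehicle, while Taar6, the neighbour of Taar7a, did not pass (-0.39 ± 0.36, adjusted p = 0.527 by limma). None of the 7 passed for odor against vehicle in either fraction. Among 10 genes that act in receptor choice, such as Lhx2, Ldb1 and the Ebf factors, 1 was higher in vehicle (Adcy3, the adenylyl cyclase, 0.50 ± 0.14, adjusted p = 0.0229) and none in odor. Lhx2 itself, the homeodomain factor of receptor enhancers, stood at -0.04 ± 0.15 and -0.01 ± 0.15. Of 15 transduction genes measured, 4 were higher and 2 lower in vehicle, and 3 were higher and 2 lower in odor. Pde1c, a phosphodiesterase, was higher by 0.94 ± 0.18 in vehicle and 1.10 ± 0.18 in odor. Rgs2, a regulator of G protein signalling that many cell types express, was lower by a difference of -6.54 in vehicle, and Grk3 by -1.26. Which cells these differences came from was not tested.

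By the same measure of profile likeness, the genes most like each member that passed a sort comparison were picked among 10015 probe sets with a gene name and at least 4 arrays above the floor. Taar7b was closest to 3 odorant receptors, Olfr165 (0.580), Olfr1130 (0.581) and Olfr1028 (0.598), against a spread of 1.34 around its own mean. The sort difference is part of this measure. These 3 differed between GFP+ and GFP- cells by 1.95 to 2.63 in vehicle and 2.39 to 2.95 in odor. Among all odorant receptors 36.0% passed as higher in vehicle, beside 5.83% of all probe sets, and their share among the candidates was not computed. Taar7e was closest to Olfr149 (0.388), Pcdh7, a protocadherin (0.431), and Olfr1115 (0.439), against its own 0.969. Taar7f was closest to Cnn3, an actin-binding calponin (0.396), Olfr365 (0.414) and Slc31a1, a copper transporter (0.416), against 0.797. For Taar8a, all but 1 of whose values lay under the floor, the closest were Cnr1 (0.436), Slc25a53 (0.441) and Tekt4 (0.443), against 0.734.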

How the data were processed

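The deposited table holds a log2 signal for each probe set and array. The submitters' processing notes name Affymetrix Expression Console as the software; its version, summarisation, normalization and annotation build were not given in the sources used here. RNA input was 50 to 100 ng per sample, per the labels' protocols. Values run from 1.25 to 19.81, beyond what 16 scanner bits can hold. Some unstated transformation was therefore applied, and whether it scales the differences and folds was not tested. Array medians over all rows were 5.52 to 5.82.

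Of 28846 rows, 6640 control rows were left out and 22206 tested; a platform annotation gave 1 symbol for 19572, several for 0 and none for 2634. Groups and replicate numbers came from sample titles. R 4.3.3 and limma 3.58.1 (lmFit, eBayes) fitted 4 group means over 16 arrays with 12 residual degrees of freedom, and calls used a Benjamini-Hochberg adjusted p below 0.05 over all probe sets. The fit was tested on simulated data. By the labels, each pool gave a GFP+ and a GFP- sample from the same mice. Their deviations from group means correlated at 0.0136 to 0.425 (consensus 0.171), and blocked values are given where they change a call. Where all arrays of the dimmer group lay under their floor (the highest of 23 background bins), no plain fold is given. The number of arrays limits the precision. No 2 arrays held identical values (highest r = 0.992). Alignments used Biopython 1.88 and plots matplotlib 3.10.9, with Python 3.11.15; sequences and gene order are RefSeq's on GRCm38.p6, and array coordinates are not given.

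All 8 members were named in every comparison. Other genes came from fixed lists by adjusted p, and the likest genes from the rule in the text. Taar2, Taar4, Taar5, Taar6, Taar9, Lhx2, Grk3 and Rgs2 were chosen after their values were seen. Members and lists were chosen with earlier results of these data known. Alternatives were the pool or the replicate number as a block, a trended robust prior, quantile normalization, centring, filters on dim probe sets, array weights, fewer arrays or probe sets in the fit, values raised to background, and each pool left out.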

Additional observations from a re-analysis of the deposited data

How the results depend on the processing

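Each result was recomputed under up to 23 alternatives, of which leaving out both replicate 1 pools was chosen after seeing the data. In vehicle, 3 members were higher and 1 lower. The lower count became 3 with the pool as a random replicate block, with the replicate number as a block or with array weights, and 2 with the pool as a fixed replicate block, with a trended robust prior, with quantile normalization over all arrays, without the lowest 40% of probe sets, with only the arrays compared or with values raised to the floor. It became 0 with centred arrays, where the members' median turned from -0.08 to 0.28. The higher count became 4 with centred arrays and 2 with a trended robust prior or with values raised to the floor. It became 1 with values raised to the negative control percentile. In odor, 2 members were higher and 1 lower. The higher count became 4 with the random pool block, quantile normalization over all arrays, centred arrays or without the lowest 40% of probe sets. With the random pool block it included Taar8a and Taar8c, which gave hardly any signal over background. The lower count there became 2 with the random pool block or without both replicate 1 pools, 3 with array weights and 0 with values raised to the negative control percentile. Leaving out 1 pool at a time gave 2 to 3 higher and 0 to 3 lower in vehicle, and 0 to 3 higher and 0 to 2 lower in odor. For odor against vehicle and for the interaction, every setting run gave 0 members.

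Among results for single members, raising values to the negative control percentile turned the vehicle sort difference of Taar7f to 0.03, the odor difference of Taar7b in GFP- cells to 0.19 and the interaction of Taar7e to 0.18. Raising them to the floor turned the interactions of Taar8a (0.17), Taar7a (-0.17) and Taar8c (-0.03). The odor differences of Taar7d and Taar7e in GFP+ cells became -0.10 and -0.09 with array weights, and -0.24 and -0.10 without both replicate 1 pools, which also turned the interaction of Taar7d to -0.10. None of these passed a test, and apart from Taar7f none had passed in the main fit; the cause was not tested. Leaving out 1 pool also turned the sign of the odor difference in GFP+ cells of Taar7a (-0.11 to 0.80), Taar7d (-0.29 to 0.44), Taar7e (-0.21 to 0.34) and Taar8c (-0.17 to 0.35), and in GFP- cells of Taar7a (-0.14 to 0.50) and Taar7b (-0.48 to 0.33). It turned the interactions of Taar7a (-0.37 to 0.48), Taar7d (-0.17 to 0.60), Taar7e (-0.54 to 0.07), Taar7f (-0.52 to 0.22) and Taar8b (-0.55 to 0.14). Where every array compared lay under the level, raised values gave no value, which held for 2 members per sort comparison at the floor and 4 at the negative control percentile.

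Over all probe sets, centring moved the vehicle calls from 1295 higher and 2189 lower to 8986 and 1750, and the odor calls from 1175 and 2124 to 8534 and 1724; quantile normalization gave 1972 and 2051, and 1855 and 2010. Values raised to the floor gave 928 and 1262 in vehicle and 820 and 1095 in odor, and values raised to the negative control percentile 450 and 541, and 404 and 506. Leaving out 1 pool gave 741 to 1254 higher in vehicle and 702 to 1192 in odor. Same-numbered odor and vehicle arrays correlated at 0.031 to 0.419 in their deviations, not all above 0.1. Yet 7 of 8 arrays correlated best with their own number. The main fit did not take the numbers as pairs, and the replicate number as a block was among the alternatives. What same-numbered arrays share was not tested.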

Other observations

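Deviations of arrays from their group means correlated positively between all members but Taar8a. Over the 16 arrays, Pearson's r of these deviations ran from 0.42 (Taar7a and Taar7b) to 0.74 (Taar7d and Taar7f) among the 10 Taar7 pairs, and it was 0.56 for Taar7d and Taar7e, whose sort differences lay on opposite sides of 0. With the 5 Taar7 genes, r was 0.39 to 0.61 for Taar8b and 0.46 to 0.63 for Taar8c, although Taar8b was under its floor on all arrays and Taar8c on all but 1. For Taar8a it ran from -0.21 to 0.04. The arrays share pools of mice and a common normalization, and r between other probe sets was not computed, so these values are a description.

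In the 250 bases before the start codon, the 6 members with a RefSeq window were searched on both strands for the homeodomain cores TAATTA and TAATGA and for CCCNNGGG, the core of sites for Ebf factors. The first pair share their first 4 letters. TAATTA was present in 1 window (Taar8b), and in 4.84% of all 32851 RefSeq windows of that length. TAATGA was present in 3 (Taar7a, Taar7e and Taar7f), and in 8.59% of all windows. CCCNNGGG was in 0 of 6, and in 11.8% of all windows. Most other windows begin at a transcription start and these at a start codon; among the 1915 windows that end at an ATG the shares were 11.5%, 15% and 5.07%. A match describes letters and shows no site.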
